A study of Mus musculus with 8 samples.

Results

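The 10 genes described here encode surface molecules through which dendritic cells stimulate or restrain T cells: Cd80, Cd86, Icosl, Cd274 and Pdcd1lg2 of the B7 family, Tnfsf4, Tnfsf9, Tnfsf14 and Cd70 of the TNF ligand family, and Cd40, a receptor of the TNF receptor family that is commonly grouped with them. They were taken by name from 55487 mouse gene identifiers, and all 10 were found. The study asked how mouse bone marrow-derived dendritic cells (BMDC) respond after they take up ferroptotic cancer cells. All 8 libraries came from wild-type C57/bl6 mice, whose marrow progenitors were grown in GM-CSF for 10 days. The 4 BMDC libraries were labelled as having no treatment. The 4 BMDC-fer libraries came from BMDC co-cultured for 4 h with human Jurkat T-cell leukemia cells that had been killed by ML162, a GPX4 inhibitor that triggers ferroptosis, and sorted for the fluorescent cargo they had engulfed. Whether the untreated BMDC were sorted too is not given in the sources used here, so uptake, co-culture and sorting cannot be told apart. No group with another kind of dead cell or with co-culture but no uptake was analysed here. GM-CSF cultures hold macrophage-like cells and granulocytes beside dendritic cells, and in bulk RNA fewer cells of a type and less RNA per cell cannot be told apart.

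T cells need a signal through their antigen receptor and a second one from such ligands. CD80 and CD86 bind CD28 on T cells, which promotes activation, and CTLA-4, which restrains it. ICOSL binds ICOS, while PD-L1 (encoded by Cd274) and PD-L2 (encoded by Pdcd1lg2) bind the inhibitory receptor PD-1. The TNF ligands OX40L (Tnfsf4), 4-1BBL (Tnfsf9), LIGHT (Tnfsf14) and CD70 bind OX40, 4-1BB, HVEM and the lymphotoxin beta receptor, and CD27. CD40 on the dendritic cell is engaged by CD40 ligand on helper T cells and signals through TRAF adaptors and NF-kappaB. In dendritic cells CD80, CD86 and CD40 are known to rise on maturation, together with the chemokine receptor CCR7. The libraries here measure RNA and not surface protein. By flow cytometry after longer co-culture with fibrosarcoma cells, the paper reports more CD86 and CD40 on BMDC given drug-killed ferroptotic cells. With GPX4 knockdown, it reports less maturation for the initial stage of ferroptosis. Later stages gave more CD86 and CD40 and less PD-L1 there.

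The deposited values were read counts per gene, between 39326672 and 50532209 in total per library. Levels are given as CPM, read counts relative to the TMM-scaled library size, and differences as log2 fold changes of BMDC-fer over BMDC with their standard errors (SE). They come from edgeR's quasi-likelihood test, with p adjusted by the Benjamini-Hochberg method over 15411 tested genes. Genes counted as called had an adjusted p of at most 0.05 and a log2 fold change of at least 0.58 in size. A floor of 3 counts corresponded to 0.0594 to 0.0763 CPM and covers counting error only. Within either group replicates 1 and 2 stood away from replicates 3 and 4, which the labels do not explain, and the cause was not tested. Same-numbered libraries of the groups deviated together in replicates 1 and 2, while in 3 and 4 the numbers did not tell the libraries apart. The value with the replicate number as a block is given wherever it changed a call, and values within each replicate pair are given as well. Fits within a pair, and the interaction test between the pairs, take their error from the spread inside a pair alone. Their p-values do not cover the spread between pairs. All 9 dendritic cell markers had reads in both groups, at levels that differed between markers. Itgax, which encodes CD11c, was 1110 ± 293 CPM in BMDC against 1033 ± 247 CPM in BMDC-fer (SD, n = 4) and was the least changed of them (log2 fold change -0.10), while Flt3, a receptor of dendritic cell development, was 3.92 ± 0.427 against 0.229 ± 0.147 CPM (SD, n = 4; -4.06, adjusted p = 0.00207), at 5 to 22 counts in BMDC-fer. Markers of several cell types moved with the groups. Their counts of calls below stand beside 5.91% of all tested genes called lower. With the replicate block 13.0% of all tested genes were called in either direction. The 9 dendritic cell markers summed to 6509 to 15080 CPM in BMDC against 3102 to 7321 CPM in BMDC-fer, with 3 of 9 called lower (Flt3, Irf4 and Dpp4), and 7 with the replicate block. The 8 mature dendritic cell markers summed to 1423 to 1652 CPM and 415 to 695 CPM, with 5 of 7 tested called lower, among them Ccr7 with a log2 fold change of -3.09. The 8 macrophage markers summed to 1511 to 2238 CPM and 1659 to 3000 CPM, with 1 of 8 called lower, and the 8 neutrophil markers to 39.5 to 219 CPM and 13.75 to 39.6 CPM, with 4 of 8 called lower, and 8 with the replicate block. The 6 mast cell and basophil markers summed to 32.5 to 64.8 CPM and 14.5 to 33.0 CPM, with 3 tested and 1 called lower with the replicate block only, and the 6 B cell markers to at most 1.47 CPM in any library. The 12 T cell markers, of which 1 of 3 tested was called lower, summed to 29.7 to 43.0 CPM and 29.35 to 53.9 CPM, nearly all of it Cd28. The other 11 summed to 2.29 to 5.66 CPM and 0.863 to 1.66 CPM, and Themis and Rag1 were at 0 in all libraries. The part of these cell populations in the results on the ligands was not tested.

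Cd80 and Cd86 were lower in BMDC-fer and were the members called. No member was called higher by edgeR over all libraries with the filter on low counts and no block or covariate. Cd86 fell 2.77-fold and Cd80 fell 2.12-fold. Tnfsf14 was the member with the largest positive difference, 3.44-fold, with adjusted p = 0.0562 just above the threshold. Of the members with a positive difference, 1 had an unadjusted p under 0.05 in edgeR (Tnfsf14), and DESeq2 called it. Of the 10 members, 9 passed the filter on low counts, all but Cd70, and 2 were called, both lower. Over all tested genes 9.38% were called, 5.91% lower and 3.47% higher. With the replicate block 4 members were called, all lower (Cd80, Cd86, Cd40 and Icosl), beside 13.0% of all tested genes. DESeq2 called 3 members, Cd80, Cd86 and Tnfsf14, beside 14.7% of all tested genes. The log2 fold change was negative for 7 of the 9 tested members and positive for 2, with a median of -0.54 beside 0.00 over all tested genes. The groups did not overlap for 3 of the 9, Cd86 and Pdcd1lg2 below and Tnfsf14 above, beside 22.9% of all tested genes. The plot of CPM by library shows all 80 values.

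**Figure D1:**
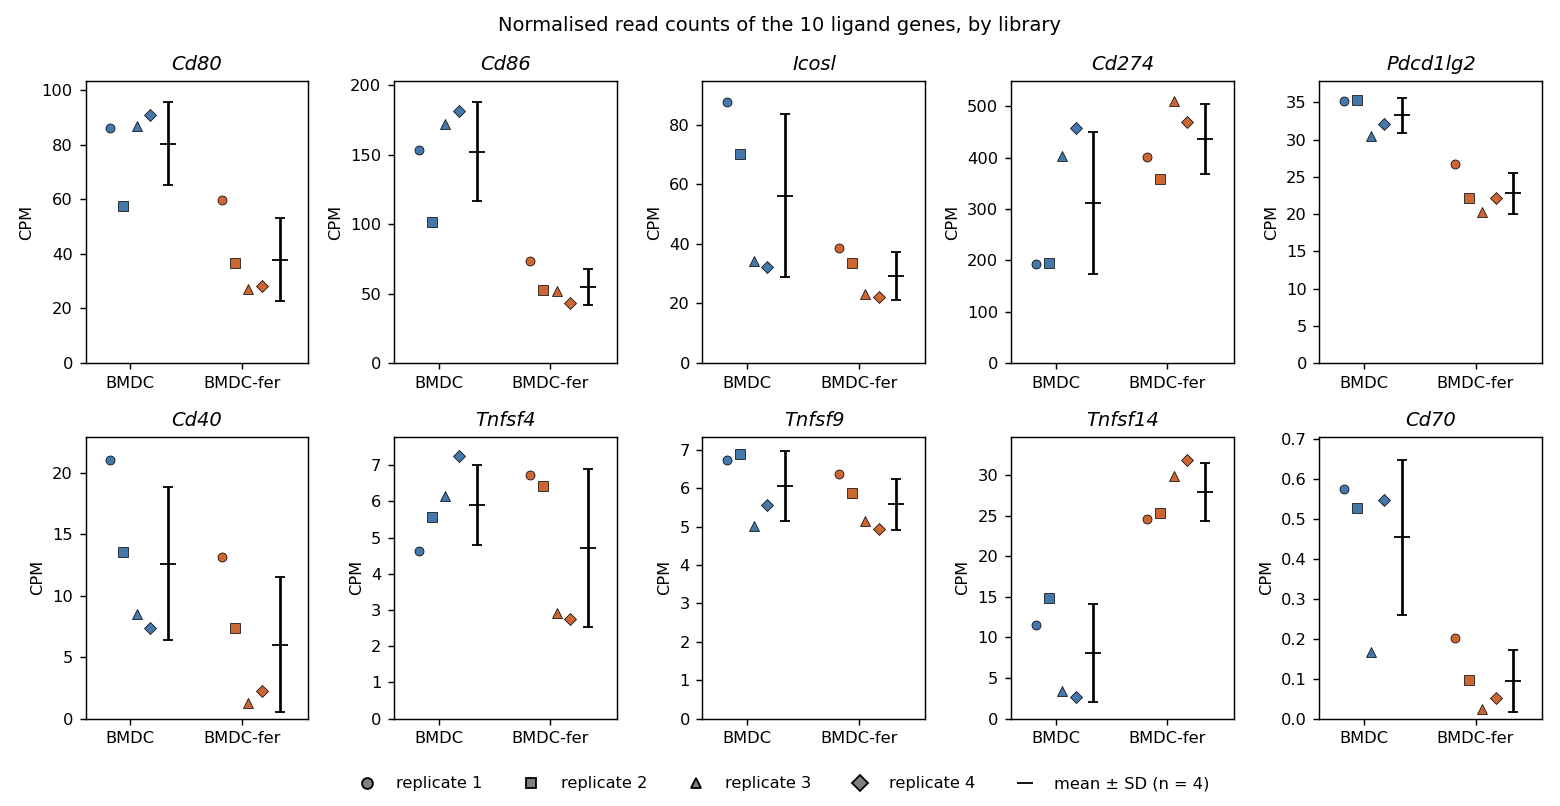
CPM (y axis, linear, from 0) of each of the 10 genes in the 4 BMDC libraries (blue) and the 4 BMDC-fer libraries (orange), with the replicate number as the symbol and the mean ± SD of each group as a bar. The 4 BMDC-fer libraries lie below all BMDC libraries for Cd86 and Pdcd1lg2 and above them for Tnfsf14. Replicates 1 and 2 stand apart from 3 and 4 most in BMDC for Icosl, Cd274 and Tnfsf14. They do so most in BMDC-fer for Tnfsf4, and in both groups for Cd40.

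The CD28 ligands were the stimulatory B7 members with the highest mean CPM, and both fell. In BMDC replicates 1 and 2, however, Icosl was above Cd80. Cd86 (ENSMUSG00000022901) lies on the minus strand at chr16:36603869-36666081 of GRCm38, the assembly also named mm10, in the GENCODE M21 annotation. It was 154, 101, 172 and 181 CPM in BMDC replicates 1 to 4 and 73.1, 52.3, 51.6 and 42.9 CPM in BMDC-fer replicates 1 to 4. Every BMDC-fer library was below every BMDC library, with BMDC replicate 2 the lowest of its group. The mean fell from 152 ± 35.7 to 55.0 ± 12.8 CPM (SD, n = 4), a log2 fold change of -1.47 (SE 0.22, adjusted p = 0.00690). Cd86 stayed called with each of the 8 libraries left out in turn. Cd80 (ENSMUSG00000075122, chr16:38455561-38496335, plus strand) was 86.2, 57.7, 87.0 and 90.7 CPM in BMDC against 59.7, 36.65, 27.2 and 28.1 CPM in BMDC-fer. The groups overlapped, since BMDC replicate 2 was below BMDC-fer replicate 1. The mean fell from 80.4 ± 15.3 to 37.9 ± 15.1 CPM (SD, n = 4), a log2 fold change of -1.08 (SE 0.27, adjusted p = 0.0351). That call was lost, with adjusted p between 0.062 and 0.099, when BMDC replicate 1, 3 or 4 or BMDC-fer replicate 2, 3 or 4 was left out, and it held without BMDC replicate 2 and without BMDC-fer replicate 1. Both falls were larger in replicates 3 and 4 than in 1 and 2. For Cd80 the log2 fold change was -0.57 in replicates 1 and 2 and -1.67 in 3 and 4, a difference of -1.11 (adjusted p = 0.0239 in edgeR's interaction test), and for Cd86 it was -1.01 and -1.89, a difference of -0.88 (adjusted p = 0.0393). The fall of both genes ran beside that of 5 of 7 tested mature dendritic cell markers called lower. The summed CPM of that list did not overlap between the groups, while 22.9% of all tested genes did not overlap singly. In BMDC Ccl22 (545 CPM) and Tmem123 (390 CPM) had the highest means of the list. Socs2 (-0.32, adjusted p = 0.137) and Cd83 (-1.26, adjusted p = 0.128) were not called in the edgeR test. The part of mature dendritic cells in the fall of Cd80 and Cd86 was not tested.

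Icosl (ENSMUSG00000000732, chr10:78069302-78083913, plus strand), the ligand of ICOS, was not called without the block and was called lower with it. It was 87.7, 70.3, 34.3 and 32.3 CPM in BMDC against 38.6, 33.4, 23.1 and 22.2 CPM in BMDC-fer. The BMDC-fer library was below the BMDC library of the same number in 4 of 4 pairs, but the groups overlapped, because replicates 3 and 4 were lower than 1 and 2 in both groups. The means were 56.2 ± 27.3 and 29.3 ± 8.03 CPM (SD, n = 4), a log2 fold change of -0.94 (SE 0.35, adjusted p = 0.114, and -0.85 with adjusted p = 0.0180 with the replicate block). The effect was larger in replicates 1 and 2, at -1.13, than in 3 and 4, at -0.54 (difference 0.57, adjusted p = 0.0251), which is the reverse of the order seen for Cd80 and Cd86.

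The PD-1 ligands lie side by side on chromosome 19, and their differences had opposite signs. Cd274 (ENSMUSG00000016496, chr19:29367455-29388095) and Pdcd1lg2 (ENSMUSG00000016498, chr19:29410919-29471161) are on the plus strand. Their promoters are shown, with that of Tnfsf14, because Cd274 and Tnfsf14 were the tested members with a positive log2 fold change and Pdcd1lg2 is the neighbour of Cd274. Each is 300 bases, from 250 bases before to 50 after the start, from the RefSeq promoter table for GRCm38.p6, written on the gene's own strand, and RefSeq promoters were matched for 5 of the 10 members (Icosl, Cd80, Tnfsf14, Cd274 and Pdcd1lg2). The searched motifs were the NF-kappaB consensus decamer (found in 11.2% of 32851 promoters), TTCNNNGAA, a STAT motif (8.3%), GAAANNGAA, an interferon response motif (8.56%), and TGANTCA, an AP-1 motif (7.81%), on both strands. Capitals mark the matches. Counting the start as 0, they are at -76 to -68 for GAAANNGAA in Cd274 (chr19:29367188-29367487, minus-strand match), at -244 to -235 for the NF-kappaB decamer in Pdcd1lg2 (chr19:29410669-29410968), and at -160 to -154 for TGANTCA in Tnfsf14 (chr17:57194132-57194431, minus-strand gene).
Cd274: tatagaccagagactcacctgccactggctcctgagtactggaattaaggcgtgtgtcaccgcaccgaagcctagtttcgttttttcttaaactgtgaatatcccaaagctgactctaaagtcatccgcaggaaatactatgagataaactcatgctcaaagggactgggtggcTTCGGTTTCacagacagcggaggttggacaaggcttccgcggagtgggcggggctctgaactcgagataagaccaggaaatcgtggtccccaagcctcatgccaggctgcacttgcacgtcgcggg
Pdcd1lg2: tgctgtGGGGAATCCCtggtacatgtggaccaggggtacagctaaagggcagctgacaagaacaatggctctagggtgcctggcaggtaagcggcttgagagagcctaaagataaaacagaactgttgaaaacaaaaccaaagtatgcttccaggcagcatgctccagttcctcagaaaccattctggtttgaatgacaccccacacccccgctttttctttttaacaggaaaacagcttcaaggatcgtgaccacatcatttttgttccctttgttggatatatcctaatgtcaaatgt
Tnfsf14: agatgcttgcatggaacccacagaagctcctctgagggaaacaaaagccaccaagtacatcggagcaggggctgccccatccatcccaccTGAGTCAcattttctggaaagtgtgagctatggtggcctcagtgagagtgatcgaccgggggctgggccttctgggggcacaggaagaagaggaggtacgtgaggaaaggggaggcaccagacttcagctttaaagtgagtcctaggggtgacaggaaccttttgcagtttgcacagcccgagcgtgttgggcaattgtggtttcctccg
Icosl held the NF-kappaB decamer at -111 to -102 and Cd80 held TGANTCA at -42 to -36. The Cd80 window (chr16:38458683-38458982) belongs to a start inside the GENCODE locus of Cd80, not to the first base of that locus. These matches describe the letters in these windows, and binding was not measured.

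Cd274, the gene of PD-L1, had the highest level of the 10 and was not called. It was 193, 196, 402 and 458 CPM in BMDC against 402, 359, 511 and 470 CPM in BMDC-fer. Replicates 3 and 4 of BMDC were about as high as the BMDC-fer libraries, while replicates 1 and 2 of BMDC were well below them, and the groups overlapped. The means were 312 ± 138 and 436 ± 68.0 CPM (SD, n = 4), a log2 fold change of 0.48 (SE 0.30, adjusted p = 0.312, and 0.0882 with the replicate block). The difference depended on the replicate pair, at 0.98 in replicates 1 and 2 (adjusted p = 0.00302) and 0.20 in 3 and 4 (adjusted p = 0.0514), a change of -0.78 between the pairs (adjusted p = 0.00245). An antisense gene, AC119228.1, covers 14.1% of the exon bases of Cd274 and had 726 to 1300 counts per library, beside 8401 to 21356 for Cd274, and the use of strand in counting is not given in the sources used here. Of the 50-base words of its longest transcript, 1.68% also occur in transcripts of other genes.

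Pdcd1lg2, the gene of PD-L2, had the smallest SE of the members. It was 35.2, 35.3, 30.5 and 32.1 CPM in BMDC against 26.7, 22.1, 20.3 and 22.2 CPM in BMDC-fer. All BMDC-fer libraries were below all BMDC libraries. The means were 33.3 ± 2.38 and 22.8 ± 2.74 CPM (SD, n = 4), a log2 fold change of -0.54 (SE 0.12, adjusted p = 0.0251), which passed the p threshold but not the fold threshold. The log2 fold change was -0.52 in replicates 1 and 2 and -0.55 in 3 and 4, which differed by -0.03 with an SE of 0.15 (adjusted p = 0.887). Without the fold threshold Pdcd1lg2 would be the third called member, but the adjusted p rose to between 0.051 and 0.0822 when BMDC replicate 1, 2 or 4 or BMDC-fer replicate 2, 3 or 4 was left out, and to 0.0578 with no filter on low counts. It passed both thresholds without BMDC replicate 3 (-0.58, adjusted p = 0.0441) and without BMDC-fer replicate 1 (-0.62, adjusted p = 0.0272).

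**Figure D2:**
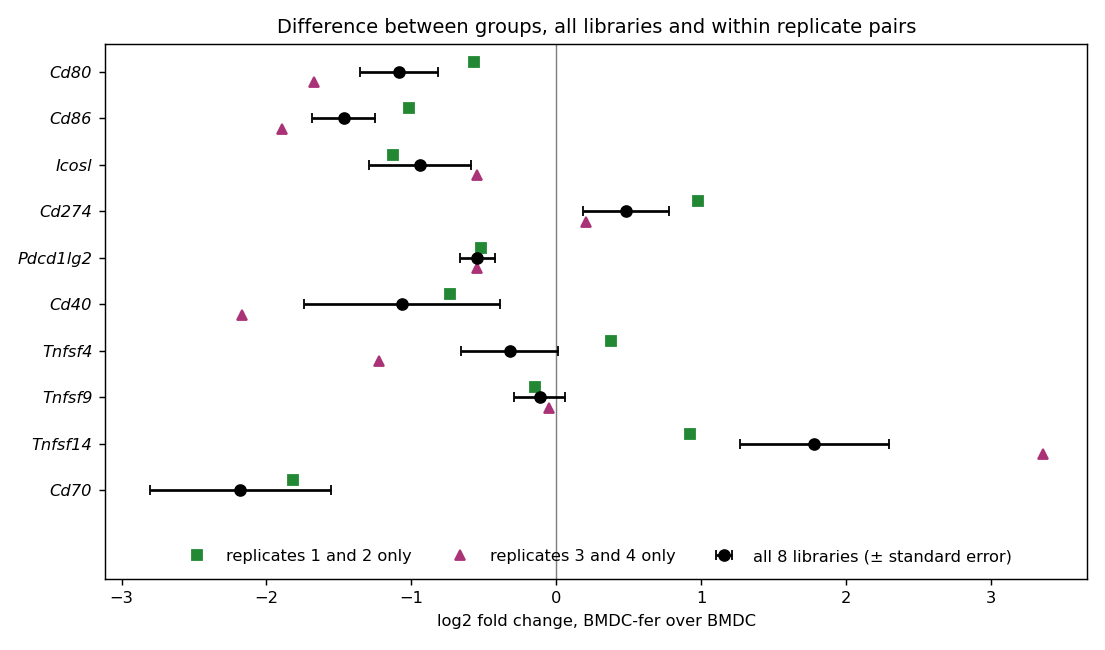
Log2 fold change of BMDC-fer over BMDC (x axis) for each gene over all 8 libraries (black circles, bars give ± the standard error), in replicates 1 and 2 only (green squares) and in replicates 3 and 4 only (purple triangles). The replicate pairs coincide for Pdcd1lg2 and Tnfsf9, lie on opposite sides of 0 for Tnfsf4 (0.38 and -1.23) and are farthest apart for Tnfsf14 (0.92 and 3.36), and Cd70 was not fitted in replicates 3 and 4.

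Ratios of counts within a library need no scaling between libraries and set the inhibitory ligands against Cd86. Cd274 counts were 1.26, 1.93, 2.34 and 2.53 times those of Cd86 in BMDC replicates 1 to 4 and 5.50, 6.87, 9.915 and 10.95 times in BMDC-fer. The lowest BMDC-fer library was above the highest BMDC library. The mean ratio was 2.01 ± 0.561 in BMDC and 8.31 ± 2.55 in BMDC-fer (SD, n = 4), a 4.11-fold difference (log2 difference 2.04, two-sided exact permutation p = 0.0286, which is the smallest that 4 against 4 allows, and 0.0429 adjusted over the 3 ratios). The ratio of Pdcd1lg2 to Cd86 was 0.229, 0.349, 0.177 and 0.177 in BMDC and 0.365, 0.423, 0.393 and 0.5165 in BMDC-fer. These groups did not overlap either, and BMDC replicate 2 came closest to BMDC-fer. The difference was 1.88-fold (log2 difference 0.91, exact permutation p = 0.0286, adjusted 0.0429), though Pdcd1lg2 itself was lower in BMDC-fer. Cd86, the divisor of both ratios, already separated the groups by itself (log2 fold change -1.47), and Cd274 was not called (0.48). Both differences thus lie mostly in Cd86, and the ratios are not evidence separate from its fall. Within same-numbered libraries both ratios were higher in BMDC-fer in 4 of 4 pairs, and the exact sign-flip permutation test gave an adjusted p of 0.125, the smallest that 4 pairs allow. Cd80 kept closer to Cd86, at 0.561, 0.569, 0.505 and 0.501 in BMDC and 0.816, 0.701, 0.5265 and 0.654 in BMDC-fer, and these groups overlapped. The 1.25-fold difference had an exact permutation p of 0.0857, and with BMDC-fer replicate 3 left out the adjusted p was 0.0429. The ratio of Cd274 to Cd86 lost its call (adjusted exact permutation p = 0.0857) when BMDC-fer replicate 1, 2 or 4 was left out, with log2 differences of 2.22, 2.11 and 1.89, and the ratio of Pdcd1lg2 to Cd86 when any BMDC-fer library was left out, with 0.98, 0.91, 0.945 and 0.81. The groups stayed apart in all these fits, and 3 against 4 allows no exact p under 0.0286 before adjustment. The adjusted p of a ratio also depends on the other ratios, so the lost calls for Cd274 to Cd86 do not show a weaker separation.

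**Figure D3:**
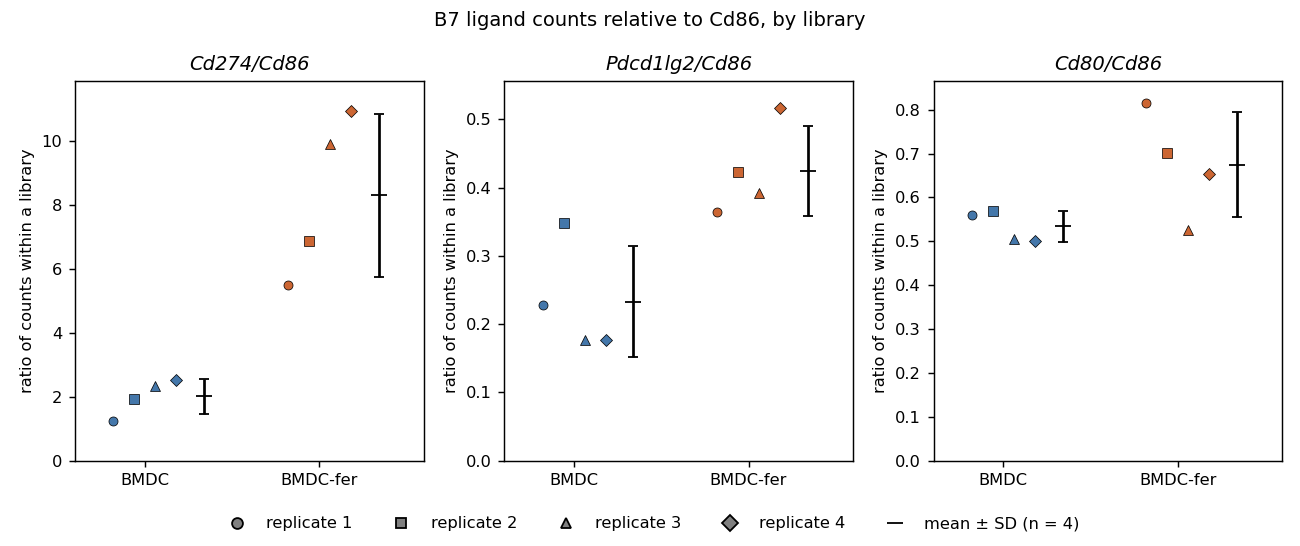
Ratio of read counts within a library (y axis, linear, from 0) of Cd274, Pdcd1lg2 and Cd80 to Cd86 in BMDC (blue) and BMDC-fer (orange), with the replicate number as the symbol and the mean ± SD of the 4 libraries as a bar. Cd274 to Cd86 is 1.26 to 2.53 in BMDC and 5.50 to 10.95 in BMDC-fer, Pdcd1lg2 to Cd86 also separates, and Cd80 to Cd86 overlaps between the groups.

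Cd40 (ENSMUSG00000017652, chr2:165055627-165072948, plus strand), the receptor through which helper T cells license dendritic cells, was not called without the block and was called lower with it. It was 21.02, 13.5, 8.49 and 7.40 CPM in BMDC against 13.15, 7.39, 1.245 and 2.28 CPM in BMDC-fer. In each of the 4 same-numbered pairs the BMDC-fer library was lower, while across numbers the groups overlapped widely. The means were 12.6 ± 6.21 and 6.01 ± 5.46 CPM (SD, n = 4), a log2 fold change of -1.06 (SE 0.68, adjusted p = 0.323, and -1.45 with adjusted p = 0.0458 with the replicate block). With 1 library left out and no block, Cd40 was called in 0 of 8 fits (adjusted p from 0.135 to 0.541, and 0.245 in DESeq2 with all libraries), and the log2 fold change ran from -0.70 without BMDC replicate 1 to -1.78 without BMDC-fer replicate 1. BMDC-fer replicates 3 and 4 held 52 and 87 counts, the lowest of the 8 libraries. The log2 fold change was -0.74 in replicates 1 and 2 (adjusted p = 0.124) and -2.17 in 3 and 4 (adjusted p = 7.76e-05), a difference of -1.44 (adjusted p = 0.0429).

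Tnfsf14 (ENSMUSG00000005824, chr17:57189492-57194177, minus strand), which encodes LIGHT, was higher in every BMDC-fer library than in any BMDC library. It was 11.5, 14.8, 3.40 and 2.67 CPM in BMDC against 24.55, 25.25, 29.9 and 31.9 CPM in BMDC-fer. The BMDC-fer libraries lay close together, and the wide spread was among the BMDC libraries, where replicates 3 and 4 were the low ones. The means were 8.11 ± 6.02 and 27.9 ± 3.57 CPM (SD, n = 4), a log2 fold change of 1.78 (SE 0.51, edgeR adjusted p = 0.0562, and 2.11 with 0.0504 with the replicate block). DESeq2 called it, with 1.78 and adjusted p = 0.00386. With the replicate pair as a covariate edgeR called it too, with 2.09 and adjusted p = 0.01225. Within the replicate pairs, fitted alone, it was called higher in both, by 0.92 in replicates 1 and 2 (adjusted p = 0.00862) and by 3.36 in 3 and 4 (adjusted p = 1.91e-07). The difference of 2.43 between the pairs was the largest of the 10 members (adjusted p = 0.000118). Of the 8 fits with 1 library left out, edgeR called Tnfsf14 in 1, without BMDC replicate 2 (2.25, adjusted p = 0.0328), and in the other 7 the adjusted p was 0.0664 to 0.130.

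Tnfsf4 (ENSMUSG00000026700, chr1:161395409-161418410, plus strand), the OX40 ligand gene, turned direction between the replicate pairs. It was 4.63, 5.555, 6.15 and 7.25 CPM in BMDC against 6.735, 6.435, 2.92 and 2.75 CPM in BMDC-fer. BMDC-fer replicates 1 and 2 were above their BMDC counterparts and replicates 3 and 4 below theirs. The overall log2 fold change was -0.32 (SE 0.34, adjusted p = 0.548). It was 0.38 in replicates 1 and 2 (adjusted p = 0.168) and -1.23 in 3 and 4 (adjusted p = 0.000233), a difference of -1.61 (adjusted p = 0.00116).

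Tnfsf9 (ENSMUSG00000035678, chr17:57105325-57107757, plus strand), the 4-1BB ligand gene, showed the smallest difference. It was 6.72, 6.90, 5.01 and 5.56 CPM in BMDC against 6.37, 5.87, 5.15 and 4.94 CPM in BMDC-fer. The groups overlapped almost entirely, with a log2 fold change of -0.12 (SE 0.18, adjusted p = 0.690), which does not show that the levels were equal. The lincRNA Gm11110 on the opposite strand covers 14.9% of its exon bases. It held 113, 138, 188 and 229 counts in BMDC and 135, 79, 80 and 83 in BMDC-fer, beside 189 to 328 for Tnfsf9, so reads of either could stand in the other if strand was not used.

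Cd70 (ENSMUSG00000019489, chr17:57145997-57149777, minus strand), the CD27 ligand gene, was barely detected and did not pass the filter on low counts. It had 25, 25, 7 and 22 counts in BMDC and 10, 4, 1 and 2 in BMDC-fer, and the last pair is under the floor of 3 counts. BMDC replicate 3 was below BMDC-fer replicate 1, so the groups overlapped. The means were 0.454 ± 0.193 and 0.0941 ± 0.0783 CPM (SD, n = 4). Fitted without the filter, its log2 fold change was -2.18 (SE 0.62, adjusted p = 0.0716, and -2.29 with 0.0186 with the replicate block). It passed the filter in 5 of the 8 leave-one-out fits. It was called without BMDC replicate 3 (-2.47, adjusted p = 0.0410) and without BMDC-fer replicate 1 (-2.90, adjusted p = 0.0387), and not without BMDC-fer replicate 2, 3 or 4 (adjusted p = 0.111, 0.104 and 0.133).

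Scaled by exon length as TPM (counts per exon length, relative to the sum over all genes), Cd274 led the 10 genes in both groups, and the order below it changed. In BMDC the mean levels were 203 ± 67.7 TPM for Cd274 and 99.6 ± 15.1 for Cd86 (SD, n = 4), each apart from its neighbours in all libraries. Below them came Cd80 at 52.4 ± 7.09, Pdcd1lg2 at 41.75 ± 7.97 and Icosl at 30.9 ± 17.7 TPM, each overlapping the next. Tnfsf9, Tnfsf14, Cd40 and Tnfsf4 overlapped in order between 11.6 and 7.73 TPM, and Cd70 was last at 1.34. In BMDC-fer Cd274 stood alone at 271.5 ± 51.5 TPM (SD, n = 4). The next 5 genes overlapped in order, Tnfsf14 at 34.1 ± 5.50, Cd86 at 33.6 ± 7.20, Pdcd1lg2 at 26.1 ± 2.71, Cd80 at 22.8 ± 8.60 and Icosl at 14.2 ± 3.45 TPM. Tnfsf14 was the seventh gene in BMDC, and in BMDC-fer its range overlapped that of Cd86. Tnfsf9 followed at 9.70, Tnfsf4 at 5.68, Cd40 at 3.89 and Cd70 at 0.247 TPM.

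The replicate pairs were also compared over the list. Libraries of a pair were much alike. The chi-square of the counts per gene was 9 between BMDC replicates 3 and 4 and 15.27 between BMDC-fer replicates 3 and 4. It was 40.85 and 34.37 between replicates 1 and 2, and from 132.7 to 346 across the pairs of a group. The small p-values within a pair rest on that narrow spread. The effect differed between the pairs for 7 of the 9 tested members, all but Pdcd1lg2 and Tnfsf9, beside 37.8% of all tested genes. In replicates 1 and 2 alone 5 of 10 fitted members were called: Cd86, Icosl and Cd70 lower, Cd274 and Tnfsf14 higher, beside 19.4% of the genes tested there. In replicates 3 and 4 alone 5 of 9 were called: Cd80, Cd86, Cd40 and Tnfsf4 lower and Tnfsf14 higher, beside 35.7%. Cd86 lower and Tnfsf14 higher were the calls shared by both pairs.

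Calls among other ligands of the same families, and in the lists after them, stand beside 9.38% of all tested genes called. Of all tested genes 5.91% were called lower and 3.47% higher. The lists were chosen with earlier results of these libraries known, so a count is not independent evidence about its list. A list of 8 genes held 7 other B7 or B7-related ligands and Btla, which is a receptor of the CD28 family and binds HVEM. Of these 8 genes 3 were tested (Cd276, Vsir and Btla) and 0 were called by edgeR or by DESeq2, with 0 and 1 (Btla) at an unadjusted p under 0.05. The log2 fold changes of the ligands were 0.68 for Cd276, which encodes B7-H3 (adjusted p = 0.431), and 0.13 for Vsir, which encodes VISTA (adjusted p = 0.624). Btla was -2.16 (adjusted p = 0.209, and -2.59 with 0.00977 with the replicate block). The median of the 3 was 0.13. Of 14 other TNF ligands 9 were tested and 1 was called, Ltb, which encodes lymphotoxin beta. It was 30.2, 14.9, 9.36 and 11.0 CPM in BMDC against 6.21, 1.37, 0.982 and 0.942 CPM in BMDC-fer. Ltb fell by 2.77 on the log2 scale (SE 0.70, adjusted p = 0.0369) with no overlap between groups, and the call held in 1 of 8 fits with a library left out. Lymphotoxin and LIGHT, whose values ran the other way, both bind the lymphotoxin beta receptor. Tnf was the highest of these ligands, at 1.15 (adjusted p = 0.197, and 1.22 with 0.00444 with the replicate block), and their median was 0.00. Of 10 other checkpoint ligands 7 were tested, with a median of 0.08, and 1 was called: Sirpa, the inhibitory receptor for CD47, rose from 788 ± 43.2 to 1192 ± 98.0 CPM (SD, n = 4; log2 fold change 0.60, adjusted p = 0.0153, held in 6 of the 8 leave-one-out fits). The lowest of them was Tnfrsf14, the HVEM gene, at -0.32 (adjusted p = 0.681).

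The receptors that these ligands bind are better known on T cells, but 7 of 11 were tested here. Of these 2 were called, both lower, beside 5.91% of all tested genes called lower. Tnfrsf9, the 4-1BB gene, was 54.45, 44.95, 132 and 163 CPM in BMDC against 27.8, 13.75, 41.8 and 18.1 CPM in BMDC-fer. Its groups did not overlap, and it fell by 1.96 on the log2 scale (SE 0.49, adjusted p = 0.0371, held in 3 of the 8 leave-one-out fits), while its ligand gene Tnfsf9 was not called. Tnfrsf4, the OX40 gene, fell from 4.895 ± 0.660 to 1.98 ± 0.727 CPM (SD, n = 4; log2 fold change -1.30, adjusted p = 0.0235, held in 4 of 8). The list's median was -0.32, its highest member Rgmb at 0.41 (adjusted p = 0.101), and its lowest Icos at -1.99 (adjusted p = 0.0772, and -2.06 with 0.0336 with the replicate block).

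All 15 genes of CD40 and TNF receptor signalling were tested, and 4 were called, all lower, with a median log2 fold change of -0.50. These were Rel (-2.06, adjusted p = 0.0160) and Nfkb1 (-0.69, adjusted p = 0.0470), both NF-kappaB subunits, Traf6 (-1.54, adjusted p = 0.0466, and -1.30 with 0.0634 with the replicate block), a ubiquitin ligase that CD40 recruits, and Birc2 (-0.72, adjusted p = 0.0191), the cIAP1 gene. With 1 library left out the calls held in 7, 1, 2 and 6 of 8 fits, in that order. With the replicate block 5 were called, Traf1 (-1.33, adjusted p = 0.0109) and Map3k14 (-0.76, adjusted p = 0.0447) in addition. The highest was the adaptor gene Traf5, at 0.32 (adjusted p = 0.231). Cd40 itself lay between these, at -1.06. The share of 4 in 15 stands beside 5.91% of all tested genes that were called lower, and the list was chosen with earlier results of these libraries known, so it is not independent evidence of its direction.

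Of 11 interferon and STAT genes that regulate Cd274, all were tested and 4 were called, beside 9.38% of all tested genes. The calls were 2 in each direction, with a list median of 0.16. The receptor chains Ifngr2 and Ifnar1 each rose by 0.59 (adjusted p = 0.0343 and 0.0253). Jak2, the kinase that signals from the interferon gamma receptor, fell from 406 ± 40.15 to 99.6 ± 29.5 CPM (SD, n = 4; adjusted p = 0.00207), and Stat3 fell by 0.59 on the log2 scale (adjusted p = 0.0313). With 1 library left out Jak2 stayed called in 8 of 8 fits, Ifnar1 and Stat3 in 3 and Ifngr2 in 2. Of 8 genes that control the stability or shedding of these surface proteins 1 was called, Spop, a ubiquitin ligase adaptor reported to act on PD-L1, which fell by 0.59 on the log2 scale (adjusted p = 0.0107, held in 5 of the 8 leave-one-out fits). Cmtm6, which keeps PD-L1 at the cell surface, was -0.43 (adjusted p = 0.0295) and March8, a ubiquitin ligase known to act on CD86, was 0.42 (adjusted p = 0.0449), and both were under the fold threshold. March8 was the highest of this list, whose median was 0.24. Of 8 adhesion ligands 1 was called, Cd24a, which fell from 414 ± 157 to 199.7 ± 20.7 CPM (SD, n = 4; log2 fold change -1.05, adjusted p = 0.0325, held in 2 of the 8). Their median was 0.18, with Vcam1 the highest at 0.67 (adjusted p = 0.564).

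**Figure D4:**
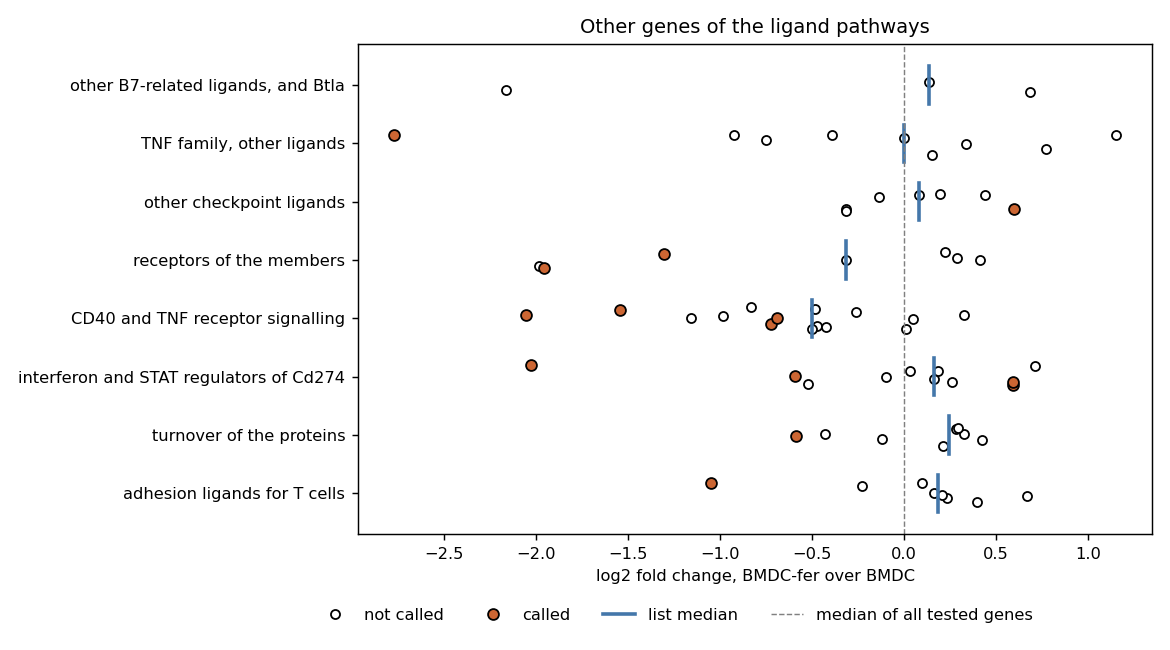
Log2 fold change of BMDC-fer over BMDC (x axis) of every tested gene in 8 lists of related genes (y axis), with called genes filled, the median of each list as a blue line and the median of all tested genes as a dashed line. The signalling list lies mostly below 0 with a median of -0.50, and the other lists spread on both sides of 0.

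Genes next to the members were counted to see whether the differences ran along the chromosome. Within 250000 bp of a member lay 87 other protein-coding genes, of which 60 were tested and 7 were called, 11.7% beside 9.38% of all tested genes. Jak2 lies 54375 bp from Cd274 and had a log2 fold change of -2.03, while Plgrkt, 65 bp from Cd274, was 92.3 ± 24.4 CPM in BMDC against 102.5 ± 5.47 CPM in BMDC-fer (SD, n = 4; log2 fold change 0.15, adjusted p = 0.600). Near Cd80, Pla1a at 22416 bp and Tmem39a at 62363 bp were called lower, by -1.08 (adjusted p = 0.0164) and -0.73 (adjusted p = 0.00770). Near Cd86, Ildr1 at 27897 bp and BC100530 at 236121 bp were called lower, by -3.28 (adjusted p = 0.0259) and -3.41 (adjusted p = 0.0387). The other called neighbours were Adgre1, 164514 bp from Tnfsf14, lower at -0.81 (adjusted p = 0.0119), and Pwp2, 86996 bp from Icosl, higher at 0.76 (adjusted p = 0.0352).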

How the data were processed

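The authors aligned reads of oligo(dT)-enriched mRNA libraries to mm10 with HISAT2, assigned them to genes with featureCounts, and deposited raw read counts, per the labels (which also name CASAVA and DESeq2, without versions). The annotation release, strand use and handling of multimapping reads are not given in the sources used here, and counts on the human genome were not analysed here. Groups and replicate numbers came from the sample labels. The labels do not say that replicates came from separate mice, so p-values measure the spread between these libraries.

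Of 55487 identifiers, 55227 matched a GENCODE M21 symbol. In R 4.3.3, edgeR 4.0.16 with TMM and filterByExpr (count minimum 10) kept 15411 genes for quasi-likelihood tests of the counts as deposited. Genes were called at an adjusted p of 0.05 and an absolute log2 fold change of 0.58, and Cd70 was fitted without the filter. TPM used the union of annotated exons. Ratios of counts were compared by exact permutation. Alternatives were DESeq2 1.42.0, other normalizations and filters, a replicate block, a covariate for the replicate pairs, either replicate pair alone, and each library left out. The block with no filter, for Cd70, was chosen after seeing the data. Scripts were tested on simulated data without the baseline differences between replicate pairs. That checks the code and does not give error rates for these libraries.

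Across genes, the departures of libraries from their group mean had correlations of 0.445, 0.354, 0.313 and 0.342 between BMDC and BMDC-fer libraries numbered 1 to 4. The numbers were taken to pair the libraries. Within replicates 3 and 4 the differently numbered libraries correlated slightly more, at 0.342 for BMDC 3 with BMDC-fer 4 and 0.379 for BMDC 4 with BMDC-fer 3. The pairing by number is thus not shown for replicates 3 and 4. Chi-square tests found no pair of libraries that differed by less than sampling noise. The members and the lists of genes were chosen with earlier results of these data known. Named genes were all members and, in each pathway list, up to 4 called genes with the smallest adjusted p and the highest and lowest tested gene, plus called protein-coding neighbours within 250000 bp. Some genes named by that rule are not reported here. Cmtm6, Vsir, Itgax, Flt3, Irf4, Dpp4, Ccr7, Traf1, Map3k14 and Plgrkt were added after their values were seen.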

Additional observations from a re-analysis of the deposited data

Results flagged for a closer look

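BMDC replicate 2 stood apart from the other BMDC libraries in Cd80 CPM, with a gap of 0.864 of the group's range, and BMDC replicate 3 did so in Cd70 CPM, with a gap of 0.879, both above Dixon's critical value of 0.829 for 4 libraries. Among the 20 groups of 4 libraries tested, chance alone gives about 1 such gap. For Cd70 the gap rests on 7 counts beside 22 to 25.

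For 7 members the effect differed between the replicate pairs by edgeR's interaction test. The log2 fold change in replicates 3 and 4 minus that in replicates 1 and 2 was -1.11 for Cd80, -0.88 for Cd86, -1.44 for Cd40, 0.57 for Icosl, -0.78 for Cd274, -1.61 for Tnfsf4 and 2.43 for Tnfsf14. For Cd274 and Tnfsf14 the pairs differed most in untreated BMDC, where replicates 3 and 4 were higher in Cd274 and lower in Tnfsf14 than replicates 1 and 2. For Tnfsf4 the pairs differed most in BMDC-fer, and for Cd40 they stood apart in both groups. What distinguishes the pairs is not given in the labels and was not tested.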

How the results depend on the processing

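Over all genes 1445 were called, 2261 with DESeq2, 2815 with the replicate pair as a covariate, 3062 in replicates 1 and 2 only, 5604 in replicates 3 and 4 only, and 565 to 1440 with 1 library left out (fewest without BMDC-fer replicate 4). The 2 called members became 4 with the replicate block, 5 with the pair covariate, 5 in either pair alone, and 1 to 4 with 1 library left out (1 without BMDC replicate 1 or 4 or BMDC-fer replicate 2, 3 or 4, and 4 without BMDC-fer replicate 1). The 14 calls in the pathway lists became 24 with the pair covariate, 23 in replicates 1 and 2, 24 in replicates 3 and 4, and 2 to 12 with 1 library left out (fewest without BMDC-fer replicate 2 or 4). The 7 members whose effect differed between the pairs became 3 to 7, with 3 without BMDC replicate 3 or 4 or BMDC-fer replicate 3 and 4 without BMDC replicate 2. Tnfsf4 turned to 0.38 in replicates 1 and 2. The ratios of Cd274 and Pdcd1lg2 to Cd86 kept log2 differences of 2.04 and 0.91 with the replicate block, at an adjusted exact p of 0.125 each. With 1 library left out they ranged from 1.83 to 2.22 and from 0.80 to 1.13, and that of Cd80 to Cd86 from 0.22 to 0.44. Pdcd1lg2 to Cd86 moved to 0.48 in replicates 1 and 2 and 1.35 in 3 and 4. The cause was not tested. RLE and upper-quartile normalization changed no member's call, and without the filter Tnfsf14 passed (adjusted p = 0.0475). Among members and the pathway genes reported here the replicate block changed no call beyond those given. Depth limits Cd70, at 1 to 25 counts per library.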
